A study of Mus musculus with 14 samples.

Results

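The 10 genes described here encode transporters that carry amino acids and small peptides across the membranes of the intestinal epithelium: Slc15a1, Slc6a19, Slc7a9, Slc3a1, Slc1a1, Slc36a1, Slc38a2, Slc7a7, Slc7a8 and Slc43a2. They were taken by gene symbol through the platform annotation, which gave 18 probe sets naming 1 of these genes alone, among 45037 probe sets tested. They are 10 of the 18193 genes with such a probe set, and all 10 were found. Transcripts were measured in mouse duodenal mucosa in 7 conditions on 14 arrays (Affymetrix MOE 430 v2.0). Male C57BL6 mice, 12 wk-old at purchase, had been kept for 2 wk on LF diet and fasted for 12 h. They were killed 30 min, 1 h or 3 h after they began a HF meal (60% of calories from fat; pools HF30min, HF1h and HF3h) or a LF meal (10% of calories from fat; pools LF30min, LF1h and LF3h), or without a meal (Fasting). Both meals drew the same share of calories from protein, and food stayed available until the mice were killed. The amount eaten, and so the amount of protein, was not fixed. Each condition was 1 pool of mucosal RNA from 20 mice, hybridised to 2 arrays as technical replicates, so the errors and p-values below cover the array and not the mouse.

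Dietary protein reaches the enterocyte as di- and tripeptides and as free amino acids. Slc15a1 (PEPT1) brings in the peptides with protons at the brush border, where Slc6a19 (B0AT1) brings in neutral amino acids with sodium. The heterodimer of Slc7a9 and Slc3a1 exchanges cystine and dibasic amino acids for neutral ones, and Slc1a1 carries glutamate and aspartate. Slc36a1 (PAT1) moves small neutral amino acids with protons and is also found on lysosomes, and Slc38a2 (SNAT2) is a sodium-coupled carrier of neutral amino acids whose transcript is known to rise in cells starved of amino acids. On the basolateral side Slc7a7 and Slc7a8, each bound to the heavy chain Slc3a2, and the facilitative carrier Slc43a2 release amino acids toward the blood.

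Values were log2 intensities after the authors' normalization, and each gene was represented by its probe set with the highest mean over the 14 arrays. Representative probe sets averaged at least 6 for 9 of the 10 genes, and Slc1a1 lay near 5 in every pool. Below 6 a probe set was treated as poorly measured. Where its change was called, it was given as a lower bound, written with "at least" or "or more". Where it was not called, it was given as read. That bound is a convention for dim probe sets. It does not cover array error, and an interval can reach below it. The 2 arrays of a pool differed little for these genes, with a median SD of 0.0487 and a maximum of 0.233 on the log2 scale. Levels of different probe sets were not set against each other, because probe sets differ in how strongly they bind.

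The tissue carried the transcripts that define absorptive epithelium. All 9 measured enterocyte markers were at or above 6 in every pool, and the array means of that list ran from 13.08 to 13.21. Markers of other tissues varied across pools. The 8 measured pancreatic acinar markers had array means from 11.95 at HF30min to 13.48 at LF1h, and the 5 stomach and Brunner gland markers from 6.77 at LF3h to 10.22 at HF30min. In a bulk sample, fewer cells of a type and less RNA per cell cannot be told apart.

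By representative probe set, 3 of the 10 transporters were called against Fasting, at LF1h or LF3h. Each fed pool was compared with the single Fasting pool, which the 6 comparisons share, by limma's moderated test with Benjamini-Hochberg adjustment over all probe sets, and a gene was called at an adjusted p under 0.05. At LF1h 2 of 10 transporters rose (Slc38a2 and Slc36a1) and 0 fell, against 1.54% of all genes called in either direction and 1.18% called higher. At LF3h 2 rose (the same genes) and 1 fell (Slc6a19), against 5.41% of all genes called, 3.13% higher and 2.28% lower. The median change of the 10 was 0.03 at LF1h and -0.05 at LF3h, and all genes had medians of -0.01 and -0.02. Slc38a2 at LF1h was the highest change of the set at 1.64-fold, so 0 of 10 reached the 2-fold change that the study's methods also required, in any of the comparisons made.

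By representative probe set, limma as fitted here called 0 of 10 transporters at any time after the HF meal. Slc7a7 was called at HF3h by its other probe set and with its probe sets averaged. At HF30min 2 of 10 had an unadjusted p under 0.05, against 13.1% of all genes, with 1.12% of all genes called after adjustment. At HF1h it was 1 of 10 against 12.0%, with 1.01% called, and at HF3h 4 of 10 against 19.4%, with 6.67% called. LF30min was the other pool with 0 calls by representative probe set. There 1 of 10 had an unadjusted p under 0.05 against 7.17% of all genes, with 0.401% called. No test of the set as a whole was made.

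**Figure D1:**
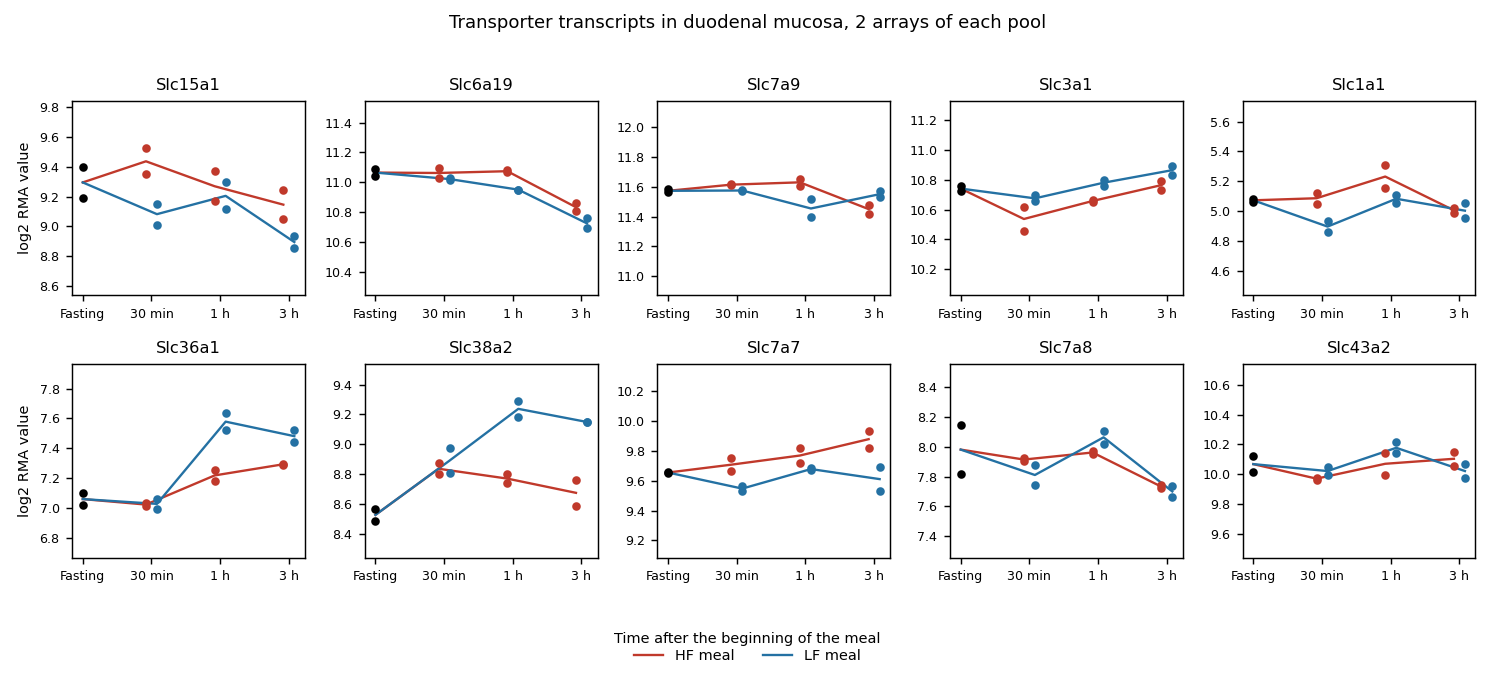
Log2 intensity (y axis, the same span in each panel) of the representative probe set of each of the 10 transporters, 1 panel a gene, for Fasting, 30 min, 1 h and 3 h (x axis), with HF and LF pools in separate colours. Each point is 1 array and lines join the pool means; Slc38a2 and Slc36a1 stand above Fasting at LF1h and LF3h, with Slc38a2 at 9.29 and 9.18 on the LF1h arrays.

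Slc38a2 had the widest response. Its representative probe set (1426722_at) read 8.48 and 8.57 on the Fasting arrays, then 8.81 and 8.97 at LF30min, 9.29 and 9.18 at LF1h, and 9.15 and 9.15 at LF3h. After the HF meal it read 8.80 and 8.87 at 30 min, 8.74 and 8.80 at 1 h, and 8.76 and 8.59 at 3 h. Every fed array thus lay above both Fasting arrays, and the LF1h and LF3h arrays lay above all HF arrays. Slc38a2 rose by 0.71 ± 0.09 (SE) at LF1h (95% interval 0.51 to 0.91; limma adjusted p = 0.00080) and by 0.62 ± 0.09 at LF3h (1.54-fold; interval 0.42 to 0.82; limma adjusted p = 0.0017). Both calls held when any 1 of the 14 arrays was left out, with a highest adjusted p of 0.0286. At LF30min the change was 0.36 (interval 0.16 to 0.57; limma adjusted p = 0.16). The HF changes were 0.31 at 30 min, 0.24 at 1 h and 0.15 at 3 h, with limma adjusted p from 0.17 to 0.48. The 30 min changes of both meals were called in alternative fits. With an intensity trend and robust prior the limma adjusted p was 0.0040 for LF and 0.010 for HF. With probe sets averaging at least 6 it was 0.0228 and 0.0261.

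A second Slc38a2 probe set (1429593_at) gave the LF rise from the earliest time. It read 7.99 and 7.64 on the Fasting arrays, 8.47 and 8.47 at LF30min, 8.41 and 8.36 at LF1h, and 8.25 and 8.33 at LF3h. All 6 LF arrays were above both Fasting arrays, and the HF arrays, at 7.85 to 8.09, overlapped Fasting. The changes were 0.65 at LF30min, 0.57 at LF1h and 0.47 at LF3h, each called (limma adjusted p = 0.0187, 0.0201 and 0.0279). Each of these 3 calls was lost without Fasting replicate 2 and without either array of its own LF pool (adjusted p up to 0.235). The third probe set (1429594_at) had pool means between 4.07 and 4.58 and was not called in any of the 11 comparisons.

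**Figure D2:**
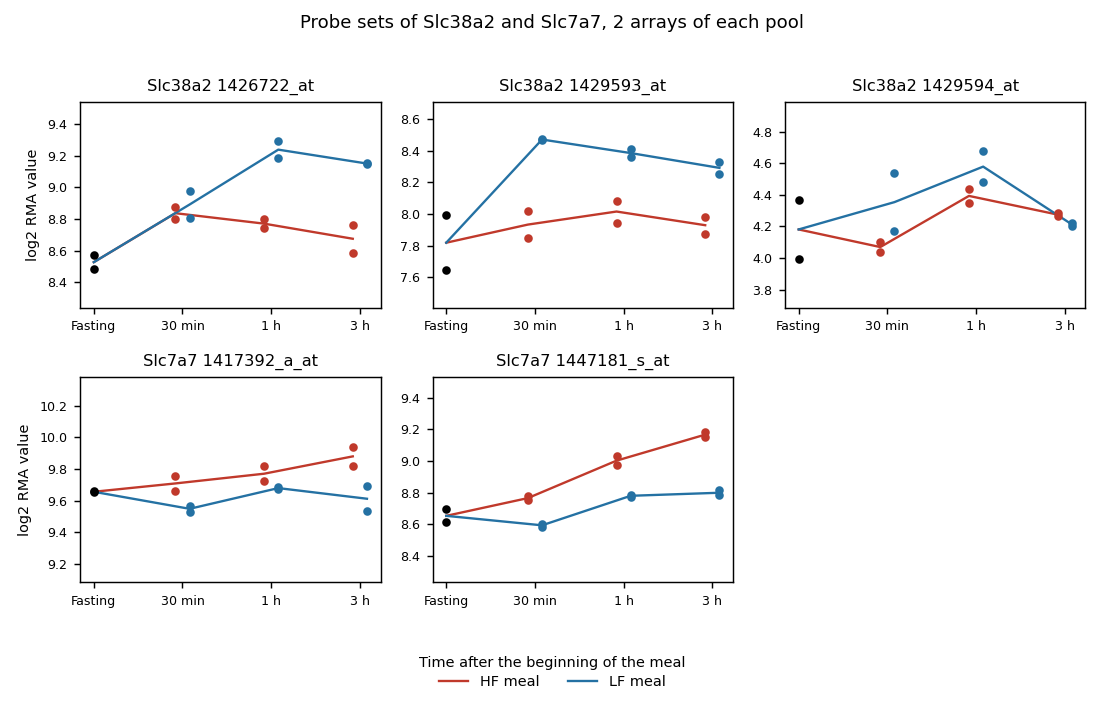
Log2 intensity (y axis) of the probe sets of Slc38a2 and Slc7a7, by time from Fasting to 3 h (x axis), HF and LF pools in separate colours; each point is 1 array and lines join pool means. At 1 h and 3 h the 2 brighter Slc38a2 probe sets both stand higher in the LF pools than in the HF pools, and the Slc7a7 probe set 1447181_s_at stands highest at HF3h, at 9.18 and 9.15.

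The promoter of Slc38a2 is shown because this gene carried the largest change. It lies at chr15:96699699-96699878 on the minus strand (RefSeq start, GRCm38.p6; 150 bases before the start and 30 after it). The window had 74.4% G and C. It was searched on both strands, as were the windows of all members, for CACGTG, the core of the palindromic E-box, and for TGATGNAA, the core of the amino acid response element, and it held neither. No match says only that these letters are not in this window.
Slc38a2: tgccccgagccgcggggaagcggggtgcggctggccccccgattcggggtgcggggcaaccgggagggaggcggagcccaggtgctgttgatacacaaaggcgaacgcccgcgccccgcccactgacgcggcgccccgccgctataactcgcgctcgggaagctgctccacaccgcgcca

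Slc36a1 rose at the same LF times. Its probe set (1428793_at) read 7.02 and 7.10 on the Fasting arrays, 6.99 and 7.06 at LF30min, 7.64 and 7.52 at LF1h, and 7.44 and 7.52 at LF3h. After the HF meal it read 7.01 and 7.03 at 30 min, 7.25 and 7.18 at 1 h, and 7.30 and 7.29 at 3 h. LF30min and HF30min thus sat at the Fasting level, and the arrays at 1 h and 3 h of both meals lay above it. Slc36a1 rose by 0.52 ± 0.08 (SE) at LF1h (1.43-fold; 95% interval 0.34 to 0.70; limma adjusted p = 0.0041) and by 0.42 ± 0.08 at LF3h (1.34-fold; interval 0.24 to 0.60; limma adjusted p = 0.0095). At LF1h 8 of 8 acinar and 4 of 5 stomach and Brunner gland markers rose, and at LF3h 1 of 8 and 3 of 5 fell; their part in the Slc38a2 and Slc36a1 values was not tested. The changes at HF1h and HF3h, 0.16 and 0.23, did not pass as fitted here (limma adjusted p = 0.49 and 0.14). The HF3h change was called with probe sets averaging at least 6 (limma adjusted p = 0.016). The LF1h call was lost without Fasting replicate 1 or LF1h replicate 1 (adjusted p up to 0.0678), and the LF3h call without Fasting replicate 1 or LF3h replicate 2 (up to 0.107).

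Slc36a1 was the member whose promoter window held CACGTG, which is why it is printed. The window is chr11:55204190-55204369 on the plus strand (RefSeq start, GRCm38.p6), and capitals mark 2 copies of CACGTG, the first bases of which lie 31 and 3 bases before the start. Among 32851 promoters of the same length, 5.09% held at least 1 copy and 0.393% at least 2. A match of letters is a description and not a site.
Slc36a1: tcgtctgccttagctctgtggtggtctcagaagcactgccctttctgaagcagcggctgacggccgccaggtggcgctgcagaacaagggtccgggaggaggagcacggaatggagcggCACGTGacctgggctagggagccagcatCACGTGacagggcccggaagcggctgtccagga

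Slc6a19, the neutral amino acid carrier of the brush border, fell at LF3h. Its probe set (1455442_at) read 11.04 and 11.09 on the Fasting arrays, 11.03 and 11.01 at LF30min, 10.95 and 10.95 at LF1h, and 10.69 and 10.76 at LF3h. After the HF meal it read 11.03 and 11.10 at 30 min, 11.07 and 11.08 at 1 h, and 10.86 and 10.81 at 3 h. On this probe set the 3 h arrays of both meals were the lowest of all. Slc6a19 fell by 0.34 ± 0.08 (SE) at LF3h (95% interval -0.51 to -0.17; limma adjusted p = 0.0224), and its change at HF3h was -0.23 (interval -0.40 to -0.06; limma adjusted p = 0.11). The HF3h change was called with an intensity trend and robust prior (limma adjusted p = 0.00070) and with probe sets averaging at least 6 (0.0094). The LF3h call was lost without any 1 of the 4 arrays compared. The second Slc6a19 probe set (1428595_at) changed by -0.23 at LF3h (limma adjusted p = 0.22). It had already changed by -0.23 at LF30min (limma adjusted p = 0.54), where its lowest array lay.

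Slc15a1, the peptide carrier, had its lowest arrays at LF3h as well. It read 8.94 and 8.85 at LF3h, against 9.19 and 9.40 on the Fasting arrays, a change of -0.40 (95% interval -0.65 to -0.15; limma adjusted p = 0.068). This change did not pass as fitted here but was called under 4 of the alternatives, at -0.40 to -0.44: with an intensity trend and robust prior (adjusted p = 0.0017), with probe sets averaging at least 6 (0.0132), with probe sets averaged by gene (0.0452) and after a second quantile normalization (0.0439). The highest pool mean was at HF30min, with arrays at 9.35 and 9.52 that overlapped Fasting. Its HF pools were above the LF pools at each time, by 0.35 at 30 min, 0.06 at 1 h and 0.25 at 3 h, with limma adjusted p from 0.30 to 0.89. The 30 min difference was called with an intensity trend and robust prior (limma adjusted p = 0.0188). From HF30min to HF3h Slc15a1 changed by -0.29 (limma adjusted p = 0.16). That change was called with the same prior (0.0208) and with probe sets averaging at least 6 (0.0482).

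The cystine and dibasic carrier had no call as fitted here. The Slc7a9 arrays ran from 11.39 to 11.65 and its 6 changes from Fasting from -0.12 to 0.06, with 95% intervals that reached from -0.29 to 0.23. Its partner Slc3a1 had changes from -0.20 at HF30min, where the arrays read 10.62 and 10.46 against 10.76 and 10.72 in Fasting, to 0.12 at LF3h. The lowest adjusted p of Slc3a1 among these 6 was 0.33 (limma). With an intensity trend and robust prior its HF30min change was called (limma adjusted p = 0.020). Slc3a1 was higher at HF3h than at HF30min by 0.23 (limma adjusted p = 0.13). It was higher at LF3h than at LF30min by 0.19 (limma adjusted p = 0.28). With the same prior both differences were called (limma adjusted p = 0.0027 for HF and 0.019 for LF). The HF difference was also called with probe sets averaging at least 6 (0.0175). Slc7a9 changed by -0.16 at HF3h against HF30min, called with the same prior (limma adjusted p = 0.011) but not as fitted here. Slc1a1, the glutamate carrier, was dim: its representative probe set (1448299_at) ran from 4.86 to 5.31 over the 14 arrays with no call. A dimmer probe set (1460386_a_at) read 4.47 and 4.50 at LF3h against 3.93 and 3.92 in Fasting, a called change of at least 0.56 (limma adjusted p = 0.0044), with both pools under 6 and the call lost without LF3h replicate 2 (adjusted p = 0.051). It was also called higher at LF3h than at LF30min, by at least 0.49 (limma adjusted p = 0.0132), a call lost without LF30min replicate 2 or either LF3h array (adjusted p up to 0.105). The 95% interval of the LF3h change of 1460386_a_at from Fasting was 0.35 to 0.77. The third Slc1a1 probe set (1425415_a_at), with pool means of 3.03 to 3.31, was not called. At LF3h it changed by -0.02 from Fasting, and the representative probe set by -0.07.

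On the basolateral side, both Slc7a7 probe sets read above Fasting at HF3h, and 1 of the 2 was called as fitted here. The brighter one (1417392_a_at) read 9.94 and 9.82 at HF3h against 9.65 and 9.66 in Fasting, a change of 0.22 (95% interval 0.04 to 0.41; limma adjusted p = 0.19). That change was called with an intensity trend and robust prior (limma adjusted p = 0.016) and with probe sets averaging at least 6 (0.030). The other (1447181_s_at) read 8.61 and 8.69 on the Fasting arrays, 8.78 and 8.75 at HF30min, 8.97 and 9.03 at HF1h, and 9.18 and 9.15 at HF3h. These HF arrays lay above Fasting at each time and were higher at each later time. The change of this probe set was at most 0.15 in the LF pools. It rose by 0.51 ± 0.08 (SE) at HF3h (1.43-fold; limma adjusted p = 0.0012), a call that held without any 1 array (adjusted p up to 0.0218). At HF1h its change was 0.35 (limma adjusted p = 0.053). At HF3h 8 of 8 acinar, 4 of 5 stomach and Brunner gland and 2 of 3 adipocyte markers were also higher than in Fasting, and the array means of the adipocyte list were 4.97 to 5.04 against 4.48 to 4.51, with Adipoq and Lep under 6 in every pool. The part of these markers in the HF3h values was not tested.

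Of the 16 RefSeq promoter windows of the 10 members, 1 of Slc7a7 held TGATGNAA, and it is printed for that reason. It lies at chr14:54417915-54418094 on the minus strand (GRCm38.p6), and capitals mark the matches, which begin 141 and 1 bases before the start. At least 1 match was present in 2.59% of the 32851 promoters and at least 2 in 0.0426%. The other 4 windows of Slc7a7 held no match.
Slc7a7: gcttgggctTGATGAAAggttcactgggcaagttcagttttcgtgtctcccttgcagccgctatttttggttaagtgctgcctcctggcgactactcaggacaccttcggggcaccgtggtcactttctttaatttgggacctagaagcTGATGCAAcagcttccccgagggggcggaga

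Slc7a8 and Slc43a2 were not called in any comparison as fitted here. Slc7a8 read 7.67 and 7.74 at LF3h and 7.72 and 7.74 at HF3h, against 7.82 and 8.15 on the Fasting arrays, whose spread was the widest among the representative probe sets. The changes were -0.28 and -0.25 (limma adjusted p = 0.17 and 0.22). The LF3h change was called with an intensity trend and robust prior (limma adjusted p = 0.040) and with probe sets averaging at least 6 (0.037). Slc43a2 (1439965_at) changed by -0.10 to 0.11 in the 6 fed pools, with 95% intervals that reached from -0.29 to 0.30. Its 2 other probe sets (1434308_at and 1456940_at) reached -0.34 and -0.35 at the most, and neither was called as fitted here. Of these, 1456940_at was dim, with pool means of 4.68 to 5.07. The -0.34 of 1434308_at, at HF30min, was called in the same alternative settings (limma adjusted p = 0.030 and 0.020).

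The HF and LF pools of the same time were compared to ask how the meals, which differed in fat and carbohydrate, differed in their response. By representative probe set, Slc38a2 was the transporter called: it read 8.76 and 8.59 at HF3h against 9.15 and 9.15 at LF3h, a difference of -0.48 ± 0.09 (SE; 95% interval -0.68 to -0.27; limma adjusted p = 0.0205). That was 1 of 10 lower and 0 higher at 3 h, against 2.20% of all genes called and 1.01% called lower. The call was lost without HF3h replicate 2 or either LF3h array (adjusted p up to 0.157). The other Slc38a2 probe sets differed by -0.36 (1429593_at; limma adjusted p = 0.14) and by 0.06 (1429594_at, under 6; limma adjusted p = 0.87), and with the gene's probe sets averaged the difference was -0.26 (limma adjusted p = 0.11). With that averaging Slc7a7 was called instead, at 0.32 (limma adjusted p = 0.018). At 1 h the Slc38a2 difference was as large, -0.47 (interval -0.67 to -0.27), with a limma adjusted p of 0.077. This 1 h difference was called with an intensity trend and robust prior (limma adjusted p = 0.00026) and with probe sets averaging at least 6 (0.0073).

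At HF1h against LF1h limma called 0 of 10, with 0.225% of all genes called. There 3 of 10 had an unadjusted p under 0.05, against 11.0% of all genes: Slc38a2, Slc36a1 at -0.36 (interval -0.54 to -0.18; limma adjusted p = 0.13) and Slc7a9 at 0.18. With an intensity trend and robust prior Slc36a1 and Slc7a9 were called (limma adjusted p = 0.027 and 0.044). Slc36a1 was also called with probe sets averaging at least 6 (0.011) and averaged by gene (0.041). At HF30min against LF30min limma also called 0 of 10, with 0.550% of all genes called, and 2 of 10 had an unadjusted p under 0.05, against 9.92%. The Slc7a7 probe set 1447181_s_at was higher at HF3h than at LF3h, at 9.18 and 9.15 against 8.78 and 8.81, by 0.37 (interval 0.20 to 0.53; limma adjusted p = 0.0297). This call was lost without any 1 of the 4 arrays compared. The brighter Slc7a7 probe set differed by 0.27 (limma adjusted p = 0.16). Its difference was called with an intensity trend and robust prior (limma adjusted p = 0.0077) and with probe sets averaging at least 6 (0.026).

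**Figure D3:**
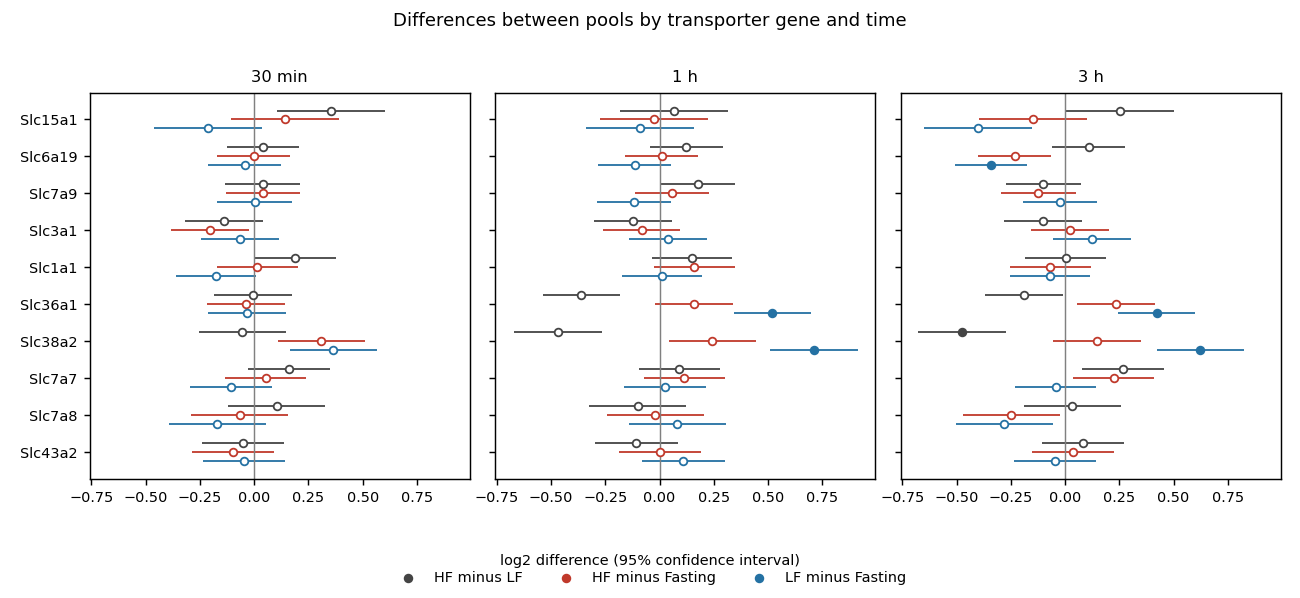
Log2 change (x axis) with its 95% interval for the 10 transporters (y axis), 1 panel for each time, with HF minus LF, HF minus Fasting and LF minus Fasting in separate colours. Filled points are called at an adjusted p under 0.05; Slc38a2 at LF1h, at 0.71, lies farthest from 0.

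Between the first and the last time of a meal, Slc36a1 was the transporter called by representative probe set. At LF3h it read 7.44 and 7.52 against 6.99 and 7.06 at LF30min, higher by 0.45 (95% interval 0.28 to 0.63; limma adjusted p = 0.0077), so that 1 of 10 was called higher against 1.99% of all genes and 4.31% in either direction. This call was lost without LF30min replicate 1 or LF3h replicate 2 (adjusted p up to 0.0857). At HF3h against HF30min limma called 0 of 10, with 8.95% of all genes called, and 4 of 10 had an unadjusted p under 0.05 against 23.5%. Slc36a1 was 1 of those 4, at 0.27 (limma adjusted p = 0.069). This Slc36a1 change was called with an intensity trend and robust prior (limma adjusted p = 0.034) and with probe sets averaging at least 6 (0.0067). It was also called with probe sets averaged by gene (0.023) and, at 0.34, after a second quantile normalization (0.0140). The Slc7a7 probe set 1447181_s_at rose by 0.40 (limma adjusted p = 0.0062), a call lost without HF30min replicate 2 or HF3h replicate 1.

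A list of 33 other amino acid and peptide transporters was measured in full, and 21 of them were under 6 in every pool. Slc38a5, a glutamine carrier, moved most. It read 5.02 and 4.94 on the Fasting arrays, 5.21 and 5.30 at LF30min, 6.13 and 6.04 at LF1h, and 4.54 and 4.72 at LF3h. After the HF meal it read 4.74 and 4.29 at 30 min, 5.89 and 5.83 at 1 h, and 6.16 and 6.31 at 3 h. It was thus high at LF1h, HF1h and HF3h and low at HF30min and LF3h. Slc38a5 rose by at least 1.10 at LF1h, 0.88 at HF1h and 1.26 at HF3h (limma adjusted p = 0.00023, 0.0030 and 3.8e-05), and was higher at HF3h than at LF3h by at least 1.61 (limma adjusted p = 5.6e-06).

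Apart from LF30min, the pancreatic acinar markers were high and low in the same pools as Slc38a5. Their array means were 12.78 to 12.79 in Fasting, 12.67 to 12.71 at LF30min, 13.46 to 13.48 at LF1h and 12.50 to 12.52 at LF3h. They were 11.95 at HF30min, 13.30 to 13.32 at HF1h and 13.41 to 13.42 at HF3h. Of 8 markers, 8 rose at LF1h, 7 at HF1h and 8 at HF3h, and 8 fell at HF30min. At LF30min all 8 acinar changes from Fasting were below 0, with 0 called, while both Slc38a5 arrays read above Fasting without a call. The part of acinar RNA in the Slc38a5 values was not tested.

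The remaining calls in the list against Fasting were at 3 h. At LF1h and HF1h 1 of 33 rose, which was Slc38a5, against 1.54% and 1.01% of all genes called. At LF3h Slc38a1, another glutamine carrier, read 8.22 and 8.33 against 7.51 and 7.73 in Fasting and rose by 0.65 (limma adjusted p = 0.0052), and Slc6a20a, a brush-border carrier of proline, read 10.55 and 10.57 against 10.88 and 11.10 and fell by 0.43 (limma adjusted p = 0.0219). At LF3h these were 2 of 33, against 5.41% of all genes. At HF3h 2 of 33 rose and 3 fell, against 6.67% of all genes called. Slc7a5, the light chain of the large neutral amino acid exchanger, read 5.92 and 5.78 against 5.30 and 5.25 in Fasting, a rise of at least 0.58 (limma adjusted p = 0.0012), and was 0.62 higher or more than at LF3h (limma adjusted p = 0.0018).

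The 3 that fell at HF3h handle proline, aromatic amino acids and peptides. Slc6a20a read 10.54 and 10.57 at HF3h, against 10.88 and 11.10 in Fasting, and fell by 0.43 (limma adjusted p = 0.0175). Slc16a10, a basolateral carrier of aromatic amino acids, read 9.07 and 9.08 against 9.57 and 9.51 in Fasting and fell by 0.46 (limma adjusted p = 0.0061). Slc15a2, the kidney-type peptide carrier, was under 6 in every pool and fell by at least 0.43 (limma adjusted p = 0.0317). All 5 called at HF3h are named, beyond the 4 of the naming rule, to complete the count. At LF30min and HF30min limma called 0 of 33, with 5 and 4 at an unadjusted p under 0.05, against 7.17% and 13.1% of all genes (0.401% and 1.12% called). Between the HF and LF pools 0 were higher and 1 lower at 30 min (Slc38a5, by at least 0.74; 0.550% of all genes called), and 2 were higher and 0 lower at 3 h (Slc38a5 and Slc7a5; 2.20% of all genes called). At HF1h against LF1h limma called 0, with 4 of 33 at an unadjusted p under 0.05, against 11.0% of all genes (0.225% called). At LF3h against LF30min 1 rose (Slc38a1) and 2 fell (Slc15a2 and Slc38a5), against 4.31% of all genes called, and at HF3h against HF30min 2 rose (Slc38a5 and Slc7a5) and 3 fell (Slc6a20a, Slc15a2 and Slc16a10), against 8.95%. The heavy chain Slc3a2, partner of Slc7a7 and Slc7a8, had pool means of 10.63 to 10.92 and was not called.

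**Figure D4:**
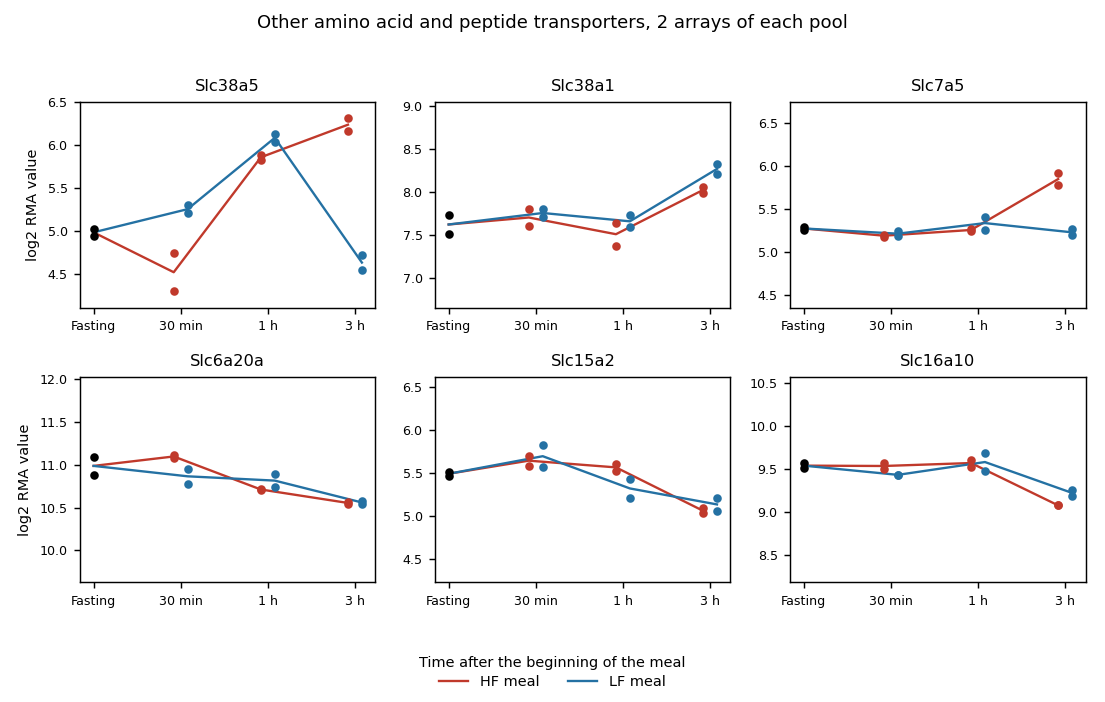
Log2 intensity (y axis) of other amino acid transporters by time from Fasting to 3 h (x axis), 1 panel a gene, HF and LF pools in separate colours; each point is 1 array and lines join pool means. Slc38a5 is high at LF1h, HF1h and HF3h, at 6.16 and 6.31 in the last.

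Peptidases of the brush border supply the transporters with substrate, and other proteins bind them or drive the sodium gradient. Of 8 measured brush-border peptidases, Naaladl1 rose by 0.51 at LF1h (9.14 and 8.93 against 8.51 and 8.54 in Fasting; limma adjusted p = 0.0255). Anpep, aminopeptidase N, fell by 0.33 at LF3h (9.92 and 10.06 against 10.33 and 10.31; limma adjusted p = 0.0418), and Enpep, aminopeptidase A, fell by 0.41 at HF3h against HF30min (limma adjusted p = 0.0103). Of 5 measured partners, Fxyd3, a regulator of the sodium pump, averaged 7.93 ± 0.09 at HF30min and 7.69 ± 0.05 at LF30min, against 7.13 ± 0.18 in Fasting (SD, n = 2 arrays). It rose by 0.80 and by 0.56 (limma adjusted p = 0.00054 and 0.0179), and fell by 0.50 at HF3h against HF30min and at LF3h against LF30min (limma adjusted p = 0.0065 and 0.0104). Stomach and Brunner gland markers were highest in the same pools, with array means of 10.16 to 10.22 at HF30min and 9.84 at LF30min against 7.08 to 7.17 in Fasting, and their part in the Fxyd3 values was not tested.

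For the 3 members with the widest range of pool means, the genes with the most similar pattern were sought over the 7 pool means, among 1016 genes that ranged by at least 0.5. This is a description over pools normalized together. Slc38a2 was closest to Id2, an inhibitor of helix-loop-helix factors (Pearson r = 0.99), which averaged 9.34 at LF1h and 9.34 at LF3h against 8.45 in Fasting, and then to Rbm15b (0.97) and Nufip2 (0.95). Slc36a1 was closest to Chd9 (0.94), Bhlhe40 (0.91) and Arhgap26 (0.90), and Bhlhe40 averaged 10.69 at LF1h and 10.66 at LF3h against 9.58 in Fasting. Slc15a1 was closest to Tmem86a (0.95), Angptl4 (0.91) and Arhgap18 (0.90), and Angptl4 averaged 8.21 at LF3h against 8.93 in Fasting.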

How the data were processed

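Duodenal mucosa RNA of 7 pools was hybridised to 14 arrays. The deposited values are log2 intensities per probe set, which the authors background-corrected and normalized by RMA (Robust Multiarray Average; version not given in the sources used here). The log base was taken from that method, and array medians were 4.47 to 4.55. Of 45101 probe sets, 64 controls were set aside. Probe sets were named through the platform annotation, with 34945 naming 1 gene, 932 several and 9160 none. In R 4.3.3, limma 3.58.1 estimated the mean of each pool from all arrays together, leaving 7 residual degrees of freedom, and each of 11 comparisons was adjusted by Benjamini-Hochberg. The median SE of a change over probe sets was 0.11, and the number of arrays limits the precision. Plots used matplotlib 3.10.9 under Python 3.11.15. The procedure was tested on simulated data.

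All 10 members were named, with up to 4 called genes per comparison of the 33 other transporters, and 3 similar genes for each of 3 members; partners and peptidases were picked after their values were seen. Members and lists were chosen with earlier results of these data known. Promoter windows came from RefSeq (GRCm38.p6), and their motifs were chosen by general knowledge. The alternatives were other thresholds, filters, variance models, scalings, probe set averages, array subsets and the replicate number as a block.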

Additional observations from a re-analysis of the deposited data

Results flagged for a closer look

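Among the differences between the meals at the same time, 2 passed the test of the difference itself. The Slc38a2 probe set 1426722_at was lower at HF3h than at LF3h, with a difference of -0.48 on the log2 scale (limma adjusted p = 0.0205), with 8.76 and 8.59 against 9.15 and 9.15. The Slc7a7 probe set 1447181_s_at was higher at HF3h than at LF3h by 0.37 (limma adjusted p = 0.0297), with 9.18 and 9.15 against 8.78 and 8.81. Between these pools 8 of 8 acinar markers, 4 of 5 stomach and Brunner gland markers and 2 of 3 adipocyte markers were also higher at HF3h, and their part in both differences was not tested.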

How the results depend on the processing

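The 7 calls over the 11 comparisons numbered 5 at an adjusted p under 0.01, 6 after median centring and 7 with the replicate number as a block. Replicate numbers did not pair the samples: deviations of same-numbered arrays correlated at -0.187 to 0.151 over 21 pairs of pools, with 2 over 0.1. At an adjusted p under 0.01 the count at HF3h against LF3h was 0. With at least a 1.5-fold change it was 1 at LF1h and 1 at LF3h, and 0 at HF3h against LF3h and at LF3h against LF30min. With 2-fold it was 0 in all of these. With only the 4 arrays compared it was 1 at LF1h, and 0 at HF3h against LF3h and at LF3h against LF30min.

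Other settings gave more calls, and these came from several members. With an intensity trend and a robust prior (27 in all) the counts were 1 at LF30min, 5 at LF3h, 2 at HF30min and 2 at HF3h. They were 1, 3 and 2 for HF against LF at 30 min, 1 h and 3 h, 4 at LF3h against LF30min and 5 at HF3h against HF30min. With probe sets averaging at least 6 (23 in all) they were 1 at LF30min, 5 at LF3h, 1 at HF30min, 3 at HF3h, 2 at HF1h against LF1h, 2 at HF3h against LF3h, 3 at LF3h against LF30min and 4 at HF3h against HF30min. With the probe sets of a gene averaged (14 in all) they were 1 at HF3h, 1 at HF1h against LF1h, 2 at LF3h against LF30min and 3 at HF3h against HF30min. After a second quantile normalization (10 in all) they were 2 at LF3h against LF30min and 1 at HF3h against HF30min. The filter adjusts over fewer probe sets by construction, and for the other settings the cause was not tested.

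With 1 array left out, the counts were 1 to 2 at LF1h, 1 to 3 at LF3h, 0 to 1 at HF3h against LF3h and 0 to 1 at LF3h against LF30min; a lone array was assumed to vary like the others. The 15 called changes of single probe sets kept their call in 83 of 95 values under the other settings and in 178 of 210 with 1 array left out, and none changed direction. The Slc38a2 difference at HF3h against LF3h was -0.26 with the mean of its probe sets and then not called. Slc6a19 at LF3h was -0.31 after median centring and not called, and the Slc7a7 probe set 1447181_s_at at HF3h against LF3h was 0.34 and not called. With 1 pool a condition, differences between mice cannot be told apart from the effect of a meal.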
